A study of Mus musculus with 9 samples.

Results

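Cholesterol and fatty acids are both built in the cytosol from acetyl-CoA. In the mevalonate pathway, acetyl-CoA is turned into mevalonate and then into isoprene units, which Fdps joins to farnesyl diphosphate. Farnesyl diphosphate either goes on through squalene and lanosterol to cholesterol or supplies the lipid anchors of RAS and other small GTPases, ubiquinone and dolichol. The transcription factors SREBP1 and SREBP2 (Srebf1 and Srebf2) switch on most of these enzymes when sterols are low, while Scap carries them out of the endoplasmic reticulum and Insig1 and Insig2 hold them there. When sterols are plentiful, LXR receptors raise the exporters Abca1 and Abcg1.

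A list of 36 genes of these routes was described in cultured mouse bone marrow cells. It was chosen by gene symbol, 18 of sterol synthesis, 5 of sterol sensing, 9 of fatty acid synthesis and 4 of transport and efflux. A row was used for 35 of them, among 55274 gene identifiers in each table, and the level of Mvd was not analysed here. A gene was tested where at least 3 of the 9 libraries reached 1 FPKM (fragments scaled to transcript length and to the mapped fragments of the library, a level per length), which 34 members did, and Abca1 did not.

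Bone marrow was taken from young adult female C57BL/6J mice 4 days after 5-fluorouracil at 150 mg/kg, which enriches for stem and progenitor cells, and was stimulated for 48 h with 10 ng/mL IL-6, 6 ng/mL IL-3 and 20 ng/mL SCF. Cells were transduced with MSCV retroviral vectors carrying NRASG12D, an activated RAS, with a blue fluorescent protein (3 libraries), NUP98-NSD1, a leukaemia fusion of a nucleoporin and a histone methyltransferase, with a green one (3 libraries), or both, NUP98-NSD1+NRASG12D (3 libraries). They were sorted by colour and expanded before RNA was isolated. No group without an oncogene was analysed here, and the labels do not say whether replicates came from separate mice or transductions, so p-values measure only the spread between these libraries.

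The cultures differed in cell type as well as in oncogene. The summed level of 9 mast cell markers was 30001 to 32606 FPKM in NRASG12D cells, 26824 to 31835 FPKM in NUP98-NSD1 cells and 738 to 4324 FPKM in NUP98-NSD1+NRASG12D cells, although Cpa3, a defining mast cell gene, was listed at 0 in all 3 NRASG12D libraries. In NUP98-NSD1 cells Cpa3 alone was at 12563.9 to 14378.5 FPKM, so the similar sums do not mean similar marker levels. In the test described below, 3 of the 9 were higher and 4 lower in NUP98-NSD1 against NRASG12D, beside 42.2% and 9.98% of all genes. The sum of 9 granulocyte markers was 26.6 to 34.4, 1725 to 6122 and 8860 to 19446 FPKM in the same order, and that of 9 macrophage markers 40.4 to 56.2, 322 to 404 and 553 to 4700 FPKM. The sum of 11 proliferation genes was 493 to 674, 1075 to 1151 and 849 to 1547 FPKM. Replicate 3 of NUP98-NSD1 had the lowest granulocyte sum of its group, and replicate 2 of NUP98-NSD1+NRASG12D the highest macrophage sum of all libraries. Nras was at 348 to 479 FPKM in NRASG12D cells, 47.7 to 51.2 FPKM in NUP98-NSD1 cells and 245 to 701 FPKM in NUP98-NSD1+NRASG12D cells. Fewer cells of a type and less RNA per cell cannot be told apart in such bulk samples, and the part of cell type in the results below was not tested. Depth was estimated at 22400000 to 35200000 fragments per library.

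SREBPs bind their targets together with NF-Y, which recognises CCAAT. RefSeq promoter windows, 250 bases before to 50 after the start on GRCm38.p6, were found for 28 of the 36 members, Mvd among them. CCAAT on either strand was present in 22 of these, against 41.1% of all 27025 genes with a window, and the GC box GGGCGG in 23, against 38.2%. The SRE-like sequence TCACNCCAC was present in 1 member, Hmgcs1, and in 1.44% of all genes. The E-box CACGTG was in 7 members, against 8.09%. These are letter matches and not measured binding. The 250 bases before the start are shown for 4 sterol synthesis genes, to set their sequence beside their levels. For the values as deposited, 2 of them were called in no comparison (Hmgcs1, Mvk), 1 rose against NRASG12D (Pmvk) and 1 fell (Lss). Capitals mark CCAAT on either strand and, in Hmgcs1, the SRE-like match that begins 137 bases before the start. All 4 genes lie on the plus strand.
Hmgcs1, chr13:119690101-119690350: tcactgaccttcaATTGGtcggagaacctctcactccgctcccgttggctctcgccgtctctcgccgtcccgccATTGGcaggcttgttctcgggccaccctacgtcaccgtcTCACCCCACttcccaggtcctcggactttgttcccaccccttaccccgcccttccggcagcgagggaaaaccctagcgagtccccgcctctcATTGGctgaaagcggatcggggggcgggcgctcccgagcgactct
Mvk, chr5:114444019-114444268: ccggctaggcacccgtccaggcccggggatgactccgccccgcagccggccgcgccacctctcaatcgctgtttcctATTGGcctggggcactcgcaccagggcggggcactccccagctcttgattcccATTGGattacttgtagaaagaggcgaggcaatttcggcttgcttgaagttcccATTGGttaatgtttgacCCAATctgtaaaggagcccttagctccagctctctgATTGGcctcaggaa
Pmvk, chr3:89454291-89454540: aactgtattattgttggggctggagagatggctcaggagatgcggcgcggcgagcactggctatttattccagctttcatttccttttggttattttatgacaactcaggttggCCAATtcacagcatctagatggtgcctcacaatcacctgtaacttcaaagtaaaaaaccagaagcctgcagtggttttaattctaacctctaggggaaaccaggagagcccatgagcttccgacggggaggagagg
Lss, chr10:76531355-76531604: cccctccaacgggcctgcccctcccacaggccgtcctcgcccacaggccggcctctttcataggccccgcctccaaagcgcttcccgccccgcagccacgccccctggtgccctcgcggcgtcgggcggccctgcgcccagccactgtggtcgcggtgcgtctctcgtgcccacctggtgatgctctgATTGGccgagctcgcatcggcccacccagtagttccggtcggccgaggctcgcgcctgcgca
In the 250 bases shown, Mvk held 5 CCAAT matches, Hmgcs1 3, and Pmvk and Lss 1 each. The full window of Hmgcs1, with the 50 bases after the start, held 4. The other RefSeq window of Pmvk, chr3:89459321-89459620, which is not shown, held 0. Of the tested members with a window, 4 of 8 called in at least 1 comparison and 17 of 18 called in none held CCAAT. Fdps, Sqle, Scd2 and Abcg1, also called, had no window and are not among the 8. The split depended on the scaling described below, since after median-ratio scaling it was 13 of 15 and 8 of 11.

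The enzymes of sterol synthesis did not move as a block. Acat2, Pmvk and Fdps were higher in both groups that carry NUP98-NSD1 than in NRASG12D, Sqle was lower in both, and Lss was lower in NUP98-NSD1+NRASG12D, while Hmgcs1, Mvk, Idi1 and the 8 measured enzymes after lanosterol did not pass the test. In fatty acid synthesis, Acly, Elovl6 and Scd2 rose in both groups and Fasn in neither. Of the sterol exporters, Abcg1 rose in both. In NUP98-NSD1, however, the calls of Acat2, Fdps, Acly, Elovl6 and Scd2 were lost and Fasn was called lower once the shift of all genes between the groups was scaled out. With that median-ratio scaling, 1 of the 17 sterol synthesis genes was higher and 7 lower there, beside 23.9% and 21.9% of all genes.

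Counts were read against all 13493 tested genes. A gene was called where its Benjamini-Hochberg adjusted p from limma, fitted to log2(FPKM+1), was under 0.05. In NUP98-NSD1 against NRASG12D, 8 of 34 members (23.5%) were higher and 2 (5.88%) lower, against 42.2% and 9.98% of all genes. In NUP98-NSD1+NRASG12D against NRASG12D, 8 (23.5%) were again higher and 2 (5.88%) lower, against 24.2% and 14.1%. In NUP98-NSD1+NRASG12D against NUP98-NSD1, 0 members were higher and 1 (2.94%) lower, against 2.3% and 6.31%, while 6 members were higher and 1 lower at an unadjusted p under 0.05 in the same limma test. The share of all genes at that unadjusted threshold was not computed, here or below. The groups did not overlap for 11 members (32.4%), 14 (41.2%) and 9 (26.5%) in these comparisons, against 64.2%, 58.6% and 31.4% of all genes. For these values as deposited, the members' shares thus lay at or below those of all genes in each comparison, a difference that was not tested. Of the members, 8 were called in the same direction against NRASG12D in both comparisons, which share the NRASG12D libraries, and 22 in none.

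As deposited, the median gene was itself shifted, by 0.27 log2 units in NUP98-NSD1 and 0.23 in NUP98-NSD1+NRASG12D against NRASG12D, and by -0.06 between the groups with the fusion. The median member moved by 0.06, 0.08 and 0.20 in the same order. Relative to the median gene, 11, 16 and 26 of the 34 members lay higher. After median-ratio scaling, which takes out most of the shift, the calls in NUP98-NSD1 against NRASG12D became 2 higher and 15 lower, or 5.88% and 44.1% of members against 23.9% and 21.9% of all genes. Quantile normalization gave the same 2 and 15, against 19.4% and 25.5%. The members' share called lower there thus lay above that of all genes under either scaling and below it as deposited. Pmvk, Abcg1, Sqle and Insig2, 4 of the 10 original calls, remained after median-ratio scaling, while Acat2, Fdps, Scap, Acly, Elovl6 and Scd2 did not pass. For NUP98-NSD1+NRASG12D they became 7 higher and 5 lower, 20.6% and 14.7% of members against 20.6% and 18.2% of all genes, with 9 of 10 remaining. Over all genes, the share of higher among called genes went from 80.9% to 52.3% and from 63.1% to 53.1%. Calls and directions against NRASG12D given below are for the values as deposited unless another setting is named. No called member changed its sign under median-ratio or quantile scaling.

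**Figure D1:**
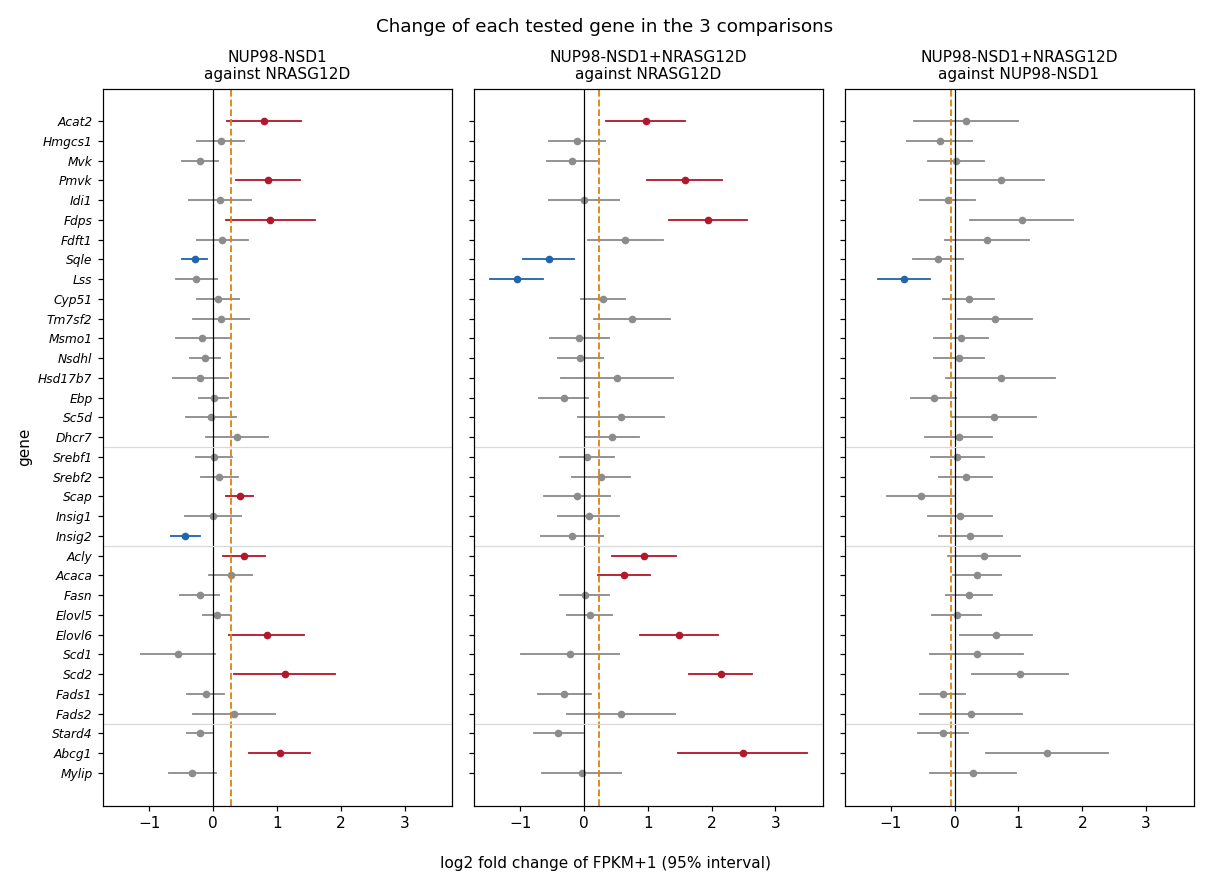
Log2 fold change (x axis, of FPKM+1) of the 34 tested genes (y axis, sterol synthesis, sensing, fatty acid synthesis, transport from top to bottom) in the 3 comparisons, with 95% intervals from limma. Red points are higher and blue lower at an adjusted p under 0.05, grey points did not pass, and the dashed line is the median of all 13493 genes; Abcg1, Scd2 and Fdps lie farthest to the right and Lss farthest to the left in the middle panel.

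Acat2, the cytosolic thiolase that makes acetoacetyl-CoA, was at 27.6, 31.7 and 25.2 FPKM in NRASG12D, 60.7, 61.8 and 32.3 in NUP98-NSD1 and 83.3, 42.2 and 49.6 in NUP98-NSD1+NRASG12D. All 6 libraries with the fusion lay above the 3 without. The log2 fold changes were 0.80 ± 0.25 (SE, adjusted p = 0.0301, limma) and 0.97 ± 0.26 (adjusted p = 0.026). The first call was lost without replicate 1 or 3 of NRASG12D (0.79 and 0.72) or replicate 1 or 2 of NUP98-NSD1 (0.65 and 0.64), and the second without replicate 1, 2 or 3 of NRASG12D (0.96, 1.06 and 0.90). The first was also lost after median-ratio scaling (0.50, adjusted p = 0.0947). Of the 50-base stretches of its transcripts, 39.1% also occur in other genes, mainly Acat3 and the overlapping Tcp1, so its value is uncertain.

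Hmgcs1, which makes the HMG-CoA from which mevalonate is formed, was at 49.1, 57.1 and 45.7 FPKM in NRASG12D, 62.2, 60.9 and 43.5 in NUP98-NSD1 and 58.3, 42.3 and 40.9 in NUP98-NSD1+NRASG12D. The groups overlapped, and the 95% interval of the difference ran from -0.25 to 0.49 log2 units for NUP98-NSD1, and from -0.55 to 0.33 for NUP98-NSD1+NRASG12D, against NRASG12D. Mvk, mevalonate kinase, ranged from 13.1 to 19.4 FPKM over the 9 libraries and was called in no comparison. 

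Pmvk, the next kinase of the pathway, was at 10.5, 13.1 and 9.45 FPKM in NRASG12D, 24.8, 24 and 14.6 in NUP98-NSD1 and 40.6, 24.3 and 41.9 in NUP98-NSD1+NRASG12D. The log2 fold change against NRASG12D was 0.86 ± 0.21 (SE, adjusted p = 0.0143, limma) in NUP98-NSD1 and 1.58 ± 0.25 (adjusted p = 0.00301) in NUP98-NSD1+NRASG12D. The groups with the fusion overlapped, and their difference of 0.72 ± 0.29 did not pass (adjusted p = 0.183). Against NRASG12D, the change in NUP98-NSD1 did not pass without replicate 3 of NRASG12D (0.76) or replicate 1 or 2 of NUP98-NSD1 (0.73 and 0.75).

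Fdps, which makes farnesyl diphosphate, had the highest level of all members in the 6 libraries with the fusion, and its increase was the largest of the sterol synthesis genes in NUP98-NSD1+NRASG12D. Its level was 87.9, 126 and 83.8 FPKM in NRASG12D, 260, 199 and 117 in NUP98-NSD1 and 386, 287 and 489 in NUP98-NSD1+NRASG12D. Replicate 3 of NUP98-NSD1 lay within the NRASG12D range, and all 3 NUP98-NSD1+NRASG12D libraries lay above the other 6. The log2 fold changes against NRASG12D were 0.90 ± 0.30 (SE, adjusted p = 0.0386, limma) and 1.94 ± 0.26 (adjusted p = 0.0015). Between the groups with the fusion the difference was 1.05, with an interval of 0.24 to 1.86, and missed the threshold (adjusted p = 0.113). Without replicate 3 of NUP98-NSD1 the log2 fold change of NUP98-NSD1 against NRASG12D was 1.21 (adjusted p = 0.00438). Without replicate 1 or 2 of NUP98-NSD1, or replicate 1 or 3 of NRASG12D, that comparison no longer passed, with log2 fold changes of 0.64, 0.83, 0.82 and 0.79, nor did it after median-ratio scaling (0.59, adjusted p = 0.109). Of the Fdps stretches, 26.2% occur elsewhere. The copy Gm3571 was at 11.7% to 13% of the Fdps level in every library, so that the 2 moved together.

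Idi1, which isomerises the isoprene units, ranged from 29.4 to 51.3 FPKM with no call, and 25.3% of its stretches are shared, mainly with Gm13502. Fdft1, squalene synthase and the first enzyme committed to sterols, was at 15.3 to 19.2 FPKM in NRASG12D but 19.6 to 38.0 FPKM in NUP98-NSD1+NRASG12D, a log2 difference of 0.65 that did not pass (adjusted p = 0.0794, limma), and shares 26.5% of its stretches, mainly with Ctsb.

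Of the 10 measured enzymes past squalene, Sqle and Lss were called, both lower. Sqle, squalene epoxidase and a rate-limiting enzyme of the pathway, was at 111, 126 and 108 FPKM in NRASG12D, 91.5, 96.9 and 92.4 in NUP98-NSD1 and 78.3, 66.1 and 91.4 in NUP98-NSD1+NRASG12D. The 3 groups did not overlap, although the highest NUP98-NSD1+NRASG12D library lay just under the lowest of NUP98-NSD1. The log2 fold change was -0.29 ± 0.08 (SE, adjusted p = 0.0249, limma) in NUP98-NSD1 and -0.55 ± 0.17 (adjusted p = 0.0397) in NUP98-NSD1+NRASG12D against NRASG12D. Both calls were near the threshold. In NUP98-NSD1 the call was lost without replicate 1 or 2 of NRASG12D (-0.31 and -0.22) or of NUP98-NSD1 (-0.27 and -0.32), and in NUP98-NSD1+NRASG12D without replicate 1, 2 or 3 of NRASG12D (-0.57, -0.48 and -0.60) or replicate 2 of NUP98-NSD1+NRASG12D (-0.43).

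Lss, lanosterol synthase, was at 47.8, 64.4 and 53.6 FPKM in NRASG12D, 51.8, 45.1 and 40.3 in NUP98-NSD1 and 23.9, 23.6 and 30.6 in NUP98-NSD1+NRASG12D. All NUP98-NSD1+NRASG12D libraries lay below the other 6. The log2 fold change was -1.06 ± 0.18 (SE, adjusted p = 0.00413, limma) against NRASG12D and -0.79 ± 0.17 (adjusted p = 0.0387) against NUP98-NSD1, where Lss was the only member called. That call was lost without replicate 1, 2 or 3 of NUP98-NSD1 and without replicate 2 or 3 of NUP98-NSD1+NRASG12D, with log2 fold changes of -0.91 to -0.70, and after median-ratio scaling (-0.68, adjusted p = 0.0678).

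The members that turn lanosterol into cholesterol, Cyp51, Tm7sf2, Msmo1, Nsdhl, Hsd17b7, Ebp, Sc5d and Dhcr7, had no call in any comparison as deposited. In NUP98-NSD1+NRASG12D against NRASG12D the log2 differences were above 0 for Tm7sf2, Sc5d (0.58), Hsd17b7 (0.52), Dhcr7 (0.44) and Cyp51 (0.30) and below 0 for Nsdhl (-0.06), Msmo1 (-0.07) and Ebp (-0.32). Tm7sf2, a sterol reductase, came nearest, at 5.83 to 9.06 FPKM in NRASG12D and 9.06 to 16.1 FPKM in NUP98-NSD1+NRASG12D, a log2 difference of 0.76 (adjusted p = 0.052, limma). Replicate 3 of NUP98-NSD1+NRASG12D had the highest value of all libraries for Hsd17b7 (25.8 FPKM) and Sc5d (74.2 FPKM), while the other 2 of its group lay at 9.27 and 11.6 FPKM and at 39.4 and 39.5 FPKM. Nsdhl varied least, from 19.2 to 24.6 FPKM.

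**Figure D2:**
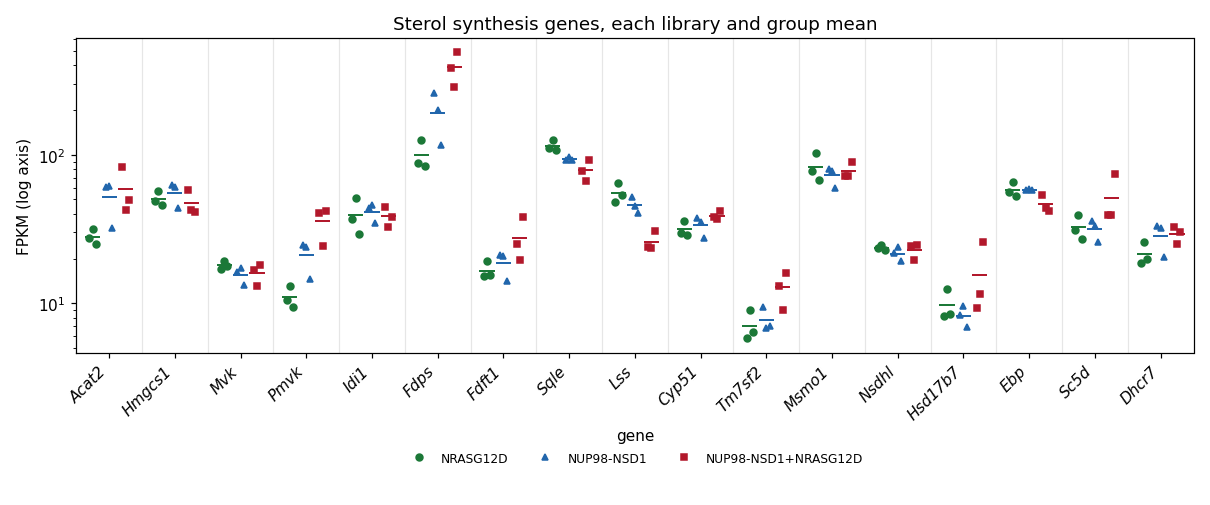
FPKM (y axis, log scale) of the 17 measured sterol synthesis genes (x axis, in pathway order) in each library, coloured by group, with a line at each group mean. Fdps and Pmvk climb from NRASG12D to NUP98-NSD1+NRASG12D, Sqle and Lss step down, and the points of the groups are mixed for Hmgcs1.

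Across the 17 genes the mean log2(FPKM+1) per library was 4.85 to 5.23 in NRASG12D cells, 4.84 to 5.29 in NUP98-NSD1 cells and 5.06 to 5.52 in NUP98-NSD1+NRASG12D cells. The ranges overlapped, and the difference of group means was 0.13 and 0.32 against NRASG12D and 0.19 between the groups with the fusion, beside a pooled SD between replicates of 0.22 to 0.24. The mean of all tested genes was 3.45 to 3.56, 3.77 to 3.89 and 3.70 to 3.85 in the same groups. In NUP98-NSD1 against NRASG12D, 3 of the 17 were called higher and 1 lower as deposited. Median-ratio and quantile scaling each gave 1 higher and 7 lower, beside 23.9% and 21.9%, and 19.4% and 25.5%, of all genes. For NUP98-NSD1+NRASG12D, 3 higher and 2 lower became 3 and 3 under median-ratio scaling, beside 20.6% and 18.2%.

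Of the 5 genes that sense sterols, Srebf1, Srebf2 and Insig1 were called in no comparison as deposited, and Scap and Insig2 in 1. In NUP98-NSD1 against NRASG12D, 0 of the 5 were higher and 2 lower after median-ratio scaling, beside 23.9% and 21.9% of all genes. Srebf1 was at 42.2, 53.9 and 45.3 FPKM in NRASG12D, 52.2, 47.8 and 42.2 in NUP98-NSD1 and 45, 43.4 and 58.9 in NUP98-NSD1+NRASG12D. Srebf2 was at 55.0, 69.5 and 51.4, then 65.6, 64.1 and 57.3, and then 68.8, 59.7 and 85.1 FPKM. Insig1, itself a target of SREBPs, was at 32.6, 42.6 and 29.6, then 41.5, 35.7 and 27.6, and then 37.0, 30.2 and 43.3 FPKM. The groups overlapped for all 3 genes in each comparison. The 95% interval of the difference of NUP98-NSD1+NRASG12D from NRASG12D ran from -0.37 to 0.47 log2 units for Srebf1, from -0.18 to 0.73 for Srebf2 and from -0.40 to 0.56 for Insig1.

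Scap and Insig2 passed in NUP98-NSD1 against NRASG12D only, Scap with a log2 fold change of 0.41 ± 0.09 (SE, adjusted p = 0.00879, limma) and Insig2 with -0.44 ± 0.10 (adjusted p = 0.00941). Scap was at 17.8 to 20.0 FPKM in NRASG12D cells, 23.8 to 27.5 in NUP98-NSD1 cells and 13.9 to 24.3 in NUP98-NSD1+NRASG12D cells, and under median-ratio scaling its difference shrank to 0.12 and did not pass. Insig2 was at 26.7 to 32.3, 20.5 to 22.7 and 19.1 to 31.2 FPKM. Between the groups with the fusion neither passed (adjusted p = 0.206 and 0.549), so a difference in response was not shown.

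Of the 9 genes of fatty acid synthesis, Acly, Elovl6 and Scd2 were called higher in both comparisons with NRASG12D and Acaca in 1, while Fasn, Scd1, Elovl5, Fads1 and Fads2 were not called. After median-ratio scaling, 0 of the 9 were higher and 4 lower in NUP98-NSD1 against NRASG12D, beside 23.9% and 21.9% of all genes. Acly, which splits citrate to cytosolic acetyl-CoA, was at 64.5 to 78.1 FPKM in NRASG12D cells, 81.6 to 112 in NUP98-NSD1 cells and 106 to 176 in NUP98-NSD1+NRASG12D cells. All libraries with the fusion lay above those without, with log2 fold changes of 0.48 ± 0.14 (SE, adjusted p = 0.0248, limma) and 0.94 ± 0.21 (adjusted p = 0.0133). Leaving out replicate 1 or 3 of NRASG12D ended both calls (0.41 and 0.49, then 0.87 and 0.95), and leaving out replicate 1 or 2 of NUP98-NSD1 ended the former (0.40 and 0.42), as did median-ratio scaling (0.18, adjusted p = 0.228). Acaca, the acetyl-CoA carboxylase, was at 2.86 to 4.11, 3.93 to 4.74 and 5.46 to 5.97 FPKM and passed in NUP98-NSD1+NRASG12D against NRASG12D (0.62 ± 0.17, adjusted p = 0.029), but not after median-ratio scaling (adjusted p = 0.0688) nor without replicate 1 or 3 of NRASG12D (0.54 and 0.59) or replicate 3 of NUP98-NSD1+NRASG12D (0.59). It shares 30.4% of its stretches, mainly with Gm5182.

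Fasn, which builds palmitate, was at 31.6, 40.8 and 40.7 FPKM in NRASG12D, 35.6, 28.8 and 32.6 in NUP98-NSD1 and 38.6, 33.9 and 41.1 in NUP98-NSD1+NRASG12D. The groups overlapped, and the log2 difference of NUP98-NSD1+NRASG12D from NRASG12D was 0.01, with an interval of -0.37 to 0.40. In NUP98-NSD1 against NRASG12D it was called lower after median-ratio scaling (-0.51, adjusted p = 0.021).

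Elovl6, which lengthens palmitate to stearate, was at 4.10, 7.99 and 5.05 FPKM in NRASG12D, 12.9, 11.8 and 7.93 in NUP98-NSD1 and 21.8, 14.7 and 16.1 in NUP98-NSD1+NRASG12D. Replicate 3 of NUP98-NSD1 lay just under replicate 2 of NRASG12D, and the NUP98-NSD1+NRASG12D libraries lay above all others. The log2 fold change was 0.84 ± 0.25 (SE, adjusted p = 0.0262, limma) in NUP98-NSD1 and 1.49 ± 0.26 (adjusted p = 0.00471) in NUP98-NSD1+NRASG12D against NRASG12D. The former was lost without replicate 1 or 3 of NRASG12D (0.66 and 0.79) or replicate 1 or 2 of NUP98-NSD1 (0.71 and 0.77), and after median-ratio scaling (0.57, adjusted p = 0.0793).

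The stearoyl-CoA desaturases, which turn stearate to oleate, parted. Scd2 was at 10.0, 16.4 and 10.0 FPKM in NRASG12D, 43.3, 26.5 and 16.8 in NUP98-NSD1 and 57.8, 55.8 and 53.4 in NUP98-NSD1+NRASG12D, and the 3 groups did not overlap. Its log2 fold change was 1.12 ± 0.34 (SE, adjusted p = 0.0279, limma) and 2.14 ± 0.21 (adjusted p = 0.000459) against NRASG12D, and 1.02 ± 0.32 between the groups with the fusion (adjusted p = 0.0997). The call of 1.12 was lost without replicate 1 or 3 of NRASG12D (1.01 and 1.01) or replicate 1 or 2 of NUP98-NSD1 (0.79 and 1.13), and after median-ratio scaling (0.83, adjusted p = 0.067). Scd1, at 3.62, 6.92 and 4.27, then 3.48, 2.02 and 3.47, and then 2.81, 3.28 and 6.55 FPKM, was called in no comparison, and its level as a percentage of Scd2 was 36.1% to 42.7% in NRASG12D cells, 7.60% to 20.7% in NUP98-NSD1 cells and 4.86% to 12.3% in NUP98-NSD1+NRASG12D cells. Only 3.97% of the Scd2 stretches are shared with other genes.

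Elovl5 (51.0 to 66.6 FPKM over the 9 libraries), Fads1 (28.3 to 46.6) and Fads2 (26.3 to 77.3), which make polyunsaturated fatty acids, were not called. The mean log2(FPKM+1) of the 9 fatty acid synthesis genes was 4.11 to 4.59 in NRASG12D cells, 4.37 to 4.74 in NUP98-NSD1 cells and 4.75 to 5.01 in NUP98-NSD1+NRASG12D cells. The NUP98-NSD1+NRASG12D libraries lay above the other 6, although the lowest (4.748) was only just above the highest of NUP98-NSD1 (4.742). Their mean was 0.59 over the NRASG12D mean and 0.35 over the NUP98-NSD1 mean. The mean of all tested genes was 3.50 in NRASG12D cells, 3.84 in NUP98-NSD1 cells and 3.77 in NUP98-NSD1+NRASG12D cells.

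**Figure D3:**
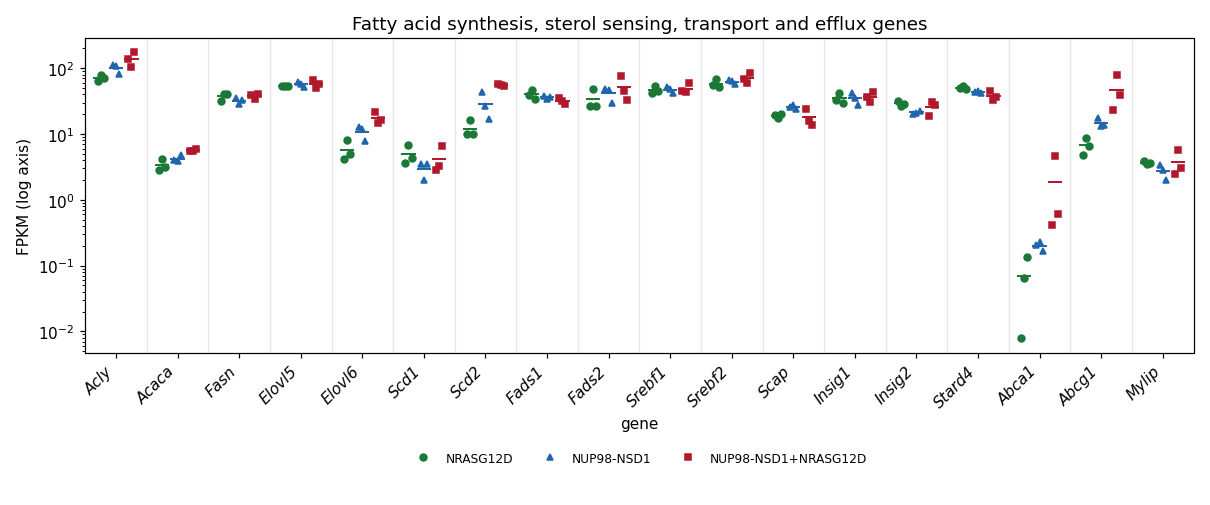
FPKM (y axis, log scale) of the 9 fatty acid synthesis, 5 sterol sensing and 4 transport and efflux genes (x axis) in each library, coloured by group, with a line at each group mean. Elovl6, Scd2 and Abcg1 climb over the 3 groups, the points of the groups are mixed for Srebf1 and Srebf2, and Abca1 is high in replicate 2 of NUP98-NSD1+NRASG12D.

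Abcg1, which passes cholesterol to lipoprotein particles, had the largest change of all tested members in NUP98-NSD1+NRASG12D against either other group, while in NUP98-NSD1 against NRASG12D that of Scd2 was larger. It was at 4.83, 8.86 and 6.68 FPKM in NRASG12D, 17.3, 13.3 and 13.7 in NUP98-NSD1 and 23.4, 77.8 and 39.5 in NUP98-NSD1+NRASG12D, and the 3 groups did not overlap. The log2 fold change was 1.04 ± 0.20 (SE, adjusted p = 0.00579, limma) and 2.49 ± 0.43 (adjusted p = 0.00443) against NRASG12D. The difference between the groups with the fusion, 1.45 ± 0.40, missed the threshold (adjusted p = 0.0741). Replicate 2 of NUP98-NSD1+NRASG12D, the highest, was also the library with the highest macrophage sum, 4700 FPKM, and without it the change against NRASG12D was 2.05 (adjusted p = 0.00512).

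Abca1, which hands cholesterol to lipid-poor apolipoprotein, was at 0.00786, 0.0641 and 0.136 FPKM in NRASG12D, 0.202, 0.230 and 0.165 in NUP98-NSD1 and 0.419, 4.58 and 0.604 in NUP98-NSD1+NRASG12D. It was not tested, and the 3 groups did not overlap. The highest value again came from the macrophage-marker-rich replicate 2 of NUP98-NSD1+NRASG12D, and the lowest lay under the level of 3 fragments in that library, 0.0122 FPKM. Stard4, a cytosolic sterol carrier, was at 48.3 to 53.7, 41.4 to 45.9 and 33.1 to 45.7 FPKM and did not pass (adjusted p = 0.0598 and 0.0891 against NRASG12D). Mylip, a ubiquitin ligase that removes a lipoprotein receptor, ranged from 2.03 to 5.65 FPKM with no call as deposited. After median-ratio or quantile scaling, both Stard4 and Mylip were called lower in NUP98-NSD1 against NRASG12D.

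**Figure D4:**
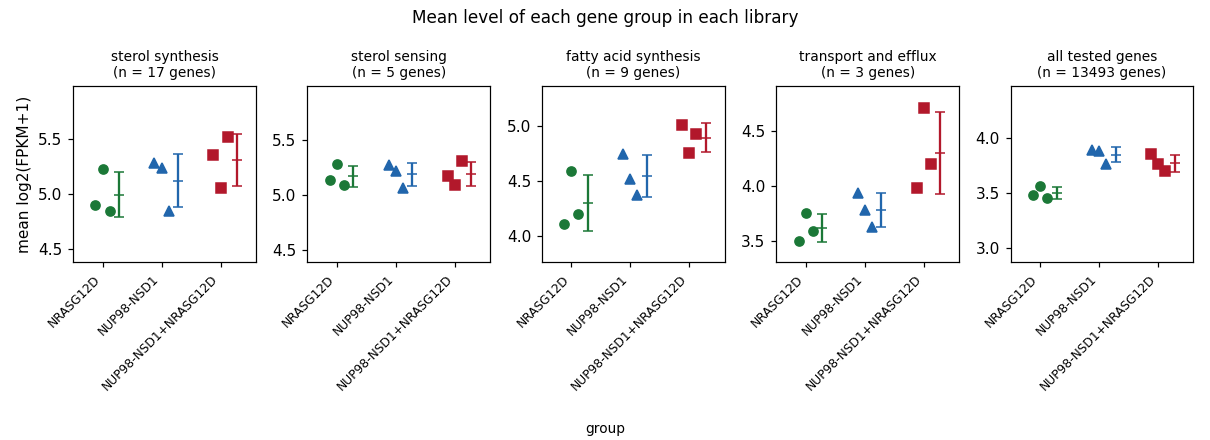
Mean log2(FPKM+1) (y axis, of the same height in every panel) per library of the member groups and of all tested genes, by group (x axis), with the mean and SD of the 3 libraries beside the points. Sterol synthesis and sensing genes overlap between groups, fatty acid synthesis genes are highest in all 3 NUP98-NSD1+NRASG12D libraries, and all tested genes are lowest in NRASG12D.

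A further 44 genes of the same pathways, of which 38 were tested, are given as counts, with values for those called with a log2 fold change of at least 1 in size. In NUP98-NSD1 against NRASG12D 16 were higher and 3 lower, in NUP98-NSD1+NRASG12D against NRASG12D 12 and 3, and in NUP98-NSD1+NRASG12D against NUP98-NSD1 1 and 3. These are 42.1% and 7.89%, 31.6% and 7.89%, and 2.63% and 7.89% of the 38, beside 42.2% and 9.98%, 24.2% and 14.1%, and 2.3% and 6.31% of all genes. After median-ratio scaling the first count became 8 higher and 13 lower, beside 23.9% and 21.9% of all genes. The second became 11 and 7, beside 20.6% and 18.2%. Among 9 genes that use isoprenoids, 4, 3 and 0 were higher and 0 lower as deposited. The 44.4%, 33.3% and 0% higher stand beside 42.2%, 24.2% and 2.3% of all genes. At an unadjusted p under 0.05 in limma, 5, 4 and 0 were higher and 0, 2 and 0 lower. With median-ratio scaling, 3 were higher and 3 lower in NUP98-NSD1 against NRASG12D, beside 23.9% and 21.9% of all genes. In NUP98-NSD1+NRASG12D against NRASG12D it gave 3 higher and 2 lower, beside 20.6% and 18.2%. Pdss1, which makes the side chain of ubiquinone from farnesyl diphosphate, rose by 1.16 ± 0.17 log2 units (SE, adjusted p = 0.0024, limma) in NUP98-NSD1 and 1.41 ± 0.26 (adjusted p = 0.00588) in NUP98-NSD1+NRASG12D. Among 6 genes of SREBP processing, 1 (16.7%) was higher in each comparison with NRASG12D, beside 42.2% and 24.2% of all genes, and 0 in the other, where 0 also passed at an unadjusted p under 0.05 in limma.

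Of 6 tested genes for sterol esters and lysosomal sterols, 4 were higher against NRASG12D in each of the comparisons, with 1 lower in each, Nceh1 in NUP98-NSD1 and Soat2 in NUP98-NSD1+NRASG12D. The 66.7% higher stand beside 42.2% and 24.2% of all genes. After median-ratio scaling the count in NUP98-NSD1 became 1 higher and 2 lower, beside 23.9% and 21.9% of all genes. In NUP98-NSD1+NRASG12D the lysosomal acid lipase Lipa rose by 2.04 ± 0.43 log2 units (SE, adjusted p = 0.0109, limma), the sterol esterifying enzyme Soat1 by 1.34 ± 0.26 (adjusted p = 0.00772), the lysosomal sterol carrier Npc2 by 1.24 ± 0.27 (adjusted p = 0.0113) and Stard3 by 1.00 ± 0.16 (adjusted p = 0.00298). With no filter on low values, the calls of Lipa (adjusted p = 0.0733) and Npc2 (0.063) were lost, and that of Npc2 also under quantile normalization (0.87, adjusted p = 0.0754). All 4 were highest in replicate 2 of NUP98-NSD1+NRASG12D, where Lipa reached 157 FPKM beside 42.2 and 69.2 in the other 2 libraries. Soat2, the other sterol esterifying enzyme, was at 6.83 to 7.88 FPKM in NRASG12D cells, 4.72 to 7.15 in NUP98-NSD1 cells and 1.29 to 1.68 in NUP98-NSD1+NRASG12D cells, a log2 fold change of -1.76 ± 0.16 against NRASG12D and -1.46 ± 0.19 against NUP98-NSD1 (adjusted p = 0.000342 and 0.0094), of which the latter did not pass with no filter (adjusted p = 0.0549). Of the LXR genes, Nr1h2 was tested and not called, at 63.8 to 81.4 FPKM, while Nr1h3 and Rxra stayed below the filter.

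Among 16 tested genes of fatty acid supply and elongation, 7, 4 and 1 were higher and 2, 2 and 2 lower in the 3 comparisons. The 43.8%, 25% and 6.25% higher stand beside 42.2%, 24.2% and 2.3% of all genes, and the 12.5% lower in each beside 9.98%, 14.1% and 6.31%. After median-ratio scaling the first comparison had 3 higher and 6 lower, beside 23.9% and 21.9% of all genes. The fatty acid activating Acsl1 was at 3.42 to 5.03 FPKM in NRASG12D cells, 11.2 to 19.2 in NUP98-NSD1 cells and 29.3 to 45.4 in NUP98-NSD1+NRASG12D cells and was called higher in all 3 (log2 fold changes of 1.66, 2.95 and 1.29). Acsl3 rose by 1.13 and 1.67 log2 units against NRASG12D, Hacd2, a dehydratase of chain elongation, by 1.63 and 2.57, and Mid1ip1, an activator of acetyl-CoA carboxylase, by 1.03 in NUP98-NSD1+NRASG12D. Acss2, which makes acetyl-CoA from acetate, was at 41.4 to 54.6 FPKM in NRASG12D cells, 33.1 to 45.1 in NUP98-NSD1 cells and 5.35 to 18.1 in NUP98-NSD1+NRASG12D cells, with log2 fold changes of -2.30 ± 0.39 and -1.97 ± 0.40 in the latter against NRASG12D and NUP98-NSD1 (adjusted p = 0.00432 and 0.0304). Me1, which supplies NADPH for lipid synthesis, was at 5.91 to 7.43, 2.51 to 4.93 and 0.286 to 1.08 FPKM and was called lower in all 3 comparisons (log2 fold changes of -0.81, -2.09 and -1.28). Between the groups with the fusion the calls of Acsl1, Acss2 and Me1 were each lost without replicate 1, 2 or 3 of NUP98-NSD1 or replicate 2 or 3 of NUP98-NSD1+NRASG12D, with log2 fold changes of 1.07 to 1.44, -2.07 to -1.63 and -1.41 to -1.03, and that of Me1 also after median-ratio scaling (-1.17). Acsl3 in NUP98-NSD1 was lost without replicate 3 of NRASG12D (0.99) or replicate 1 or 2 of NUP98-NSD1 (0.96 and 0.98), and Mid1ip1 without replicate 1, 2 or 3 of NRASG12D (1.09, 1.04 and 0.95) and after median-ratio scaling (0.83). Both acetyl-CoA routes were called in NUP98-NSD1+NRASG12D against NRASG12D, Acly higher and Acss2 lower.

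Many of these calls were lost when 1 library was left out. Such a loss can come from having fewer libraries or from the value of that library, and these were not told apart. In NUP98-NSD1 against NRASG12D the count of 10 called members became 4 without replicate 1 or replicate 3 of NRASG12D and 3 without replicate 1 or replicate 2 of NUP98-NSD1. For NUP98-NSD1+NRASG12D against NRASG12D it became 6 without replicate 1 or replicate 3 of NRASG12D. Over 13 alternative settings, 6 members kept their call in the latter comparison in each setting, namely Pmvk, Fdps, Elovl6, Scd2 and Abcg1, all higher, and Lss, lower. In NUP98-NSD1 against NRASG12D, 0 of the 10 called members kept their call in each setting, and Abcg1 and Insig2 lost it in 1 setting each. Between the groups with the fusion, the 1 called member did not keep its call in each setting either.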

How the data were processed

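The authors sequenced RNA of 9 cultures as paired reads of 50 bp, aligned them to the mouse genome with STAR (Bowtie2 for comparison) and the GENCODE M22 annotation, and used Cufflinks for gene levels; the submitters' processing notes name STAR 2.7.2a, Cufflinks 2.2.1 and GRCm38.p6. The deposited values are FPKM per gene and library, with no further scaling between libraries stated. Counting by strand and the handling of reads with several alignments are not given in the sources used here. The labels name an AllPrep kit for the extraction, whereas the methods name another.

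Each table held 55330 lines. Values of the same identifier were summed, which gave 55274 identifiers, of which 54882 were found in GENCODE M21, the release used here for transcripts and shared stretches of 50 bases. Depth was estimated from the step between low FPKM of 3386 genes with 1 transcript longer than 2500 bp. The floor was taken as 3 fragments, and reads carried no molecular identifiers, so it covers counting error only.

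Groups came from the sample labels, with 3 libraries each. Fits were made with limma 3.58.1 in R 4.3.3 (lmFit, eBayes with trend) on log2(FPKM+1), on the 6 libraries of a comparison, for the 13493 genes that reached 1 FPKM in 3 or more of the 9 libraries, with Benjamini-Hochberg adjustment over all of them and a threshold of 0.05. A fold change on this scale understates the change of genes with low values. The fit was tested on simulated data. An exact permutation test of 3 against 3 libraries cannot go below p = 0.1 and was not used. The count tests named in the methods were not run, since FPKM are not counts.

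The members and all lists were chosen with earlier results of these data known. All 36 members are reported, with the level of every library for those called with a log2 fold change of at least 1 in size and for Hmgcs1, Sqle, Insig1, Srebf1, Srebf2, Fasn, Scd1, Scd2 and Abca1. Acat2, which did not meet that rule, is given in the same way. Other pathway genes are named where called with a log2 fold change of at least 1 in size, and Nceh1 was named after its values were seen. Promoter sequences are from RefSeq on GRCm38.p6. Alternatives were a pseudocount of 0.1, no filter, quantile normalization, median-ratio scaling, 1 fit on all 9 libraries, array weights, a replicate block and leaving out each library.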

Additional observations from a re-analysis of the deposited data

How the results depend on the processing

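In NUP98-NSD1 against NRASG12D the 10 called members became 3 with no filter on low values, 17 under quantile normalization, 17 under median-ratio scaling and 3 in 1 fit on all 9 libraries, and ranged from 3 to 11 when each library was left out. In NUP98-NSD1+NRASG12D against NRASG12D the 10 became 6 with no filter and 6 to 12 without a library. In NUP98-NSD1+NRASG12D against NUP98-NSD1 the 1 became 0 with no filter (8 members at an unadjusted p under 0.05 in limma), 0 under median-ratio scaling (11), 0 with the replicate block (6), 2 in the fit on all 9 libraries and 6 with array weights, and ranged from 0 to 4 without a library. The filter alternative tested 41853 genes in place of 13493, and the cause of the other shifts was not tested.

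The differences in mean log2(FPKM+1) of NUP98-NSD1 from NRASG12D turned from 0.13 to -0.17 (median-ratio) and -0.18 (quantile) for sterol synthesis, from 0.24 to -0.0383 and -0.0775 for fatty acid synthesis, and from 0.17 to -0.10 and -0.17 for transport and efflux. Those of NUP98-NSD1+NRASG12D from NRASG12D fell to 0.0127 and 0.30 under quantile normalization for sterol and fatty acid synthesis, from 0.32 and 0.59. Leaving out a library moved no mean difference by more than the spread between replicates.

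Fold changes under the alternatives were followed for called members and for Hmgcs1, Srebf2 and Fasn. Other pathway genes were followed where called with a log2 fold change of at least 1 in size. Of these 650 fold changes, 520 kept their direction and side of the threshold, 117 no longer passed, 3 newly passed and 10 changed sign. Members outside this set were not followed, so the 3 do not count all new calls. The changes of sign were in genes without a call. Against NRASG12D, Hmgcs1 in NUP98-NSD1 became -0.20 (quantile) and -0.18 (median-ratio), Srebf2 -0.22 and -0.21 there and -0.0689 (quantile) in NUP98-NSD1+NRASG12D, and Fasn in NUP98-NSD1+NRASG12D -0.29 and -0.18, and -0.107 to 0.0879 without a library.

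Replicate numbers are shared by the groups, but same-numbered libraries did not deviate together over all genes (correlations from -0.18 to 0.16). This check cannot exclude a shared mouse or transduction, which the labels do not give. With the replicate block, 11, 8 and 0 members were called in the 3 comparisons, and 6864, 4531 and 801 of all genes in place of 7036, 5173 and 1162. Each group had 3 libraries, and depth limited only Abca1, estimated at 1.93 fragments in its lowest library.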
